A study of Mus musculus with 9 samples.

Results

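The miR-130 and miR-301 miRNAs form a family of microRNAs (miRNAs) that share a seed, and its 4 probes on a mouse miRNA panel, mmu-miR-130a, mmu-miR-130b, mmu-miR-301a and mmu-miR-301b (written without mmu below), were read here in fetal lung. They were chosen by name, as 4 of the 566 mouse miRNA probes on the panel. Counts came from the NanoString nCounter system, which counts reporter-labelled molecules without amplification. The RNA was taken from whole lungs of C57BL/6 mouse embryos at E18.5, shortly before birth, with 100 ng of total RNA per sample. There were 5 wild type lungs (samples 1 to 5) and 4 lungs with the genotype Bim3'UTRmut/mut (samples 6 to 9), in which both copies of Bim (Bcl2l11, a pro-apoptotic gene) carry a mutated 3′ untranslated region. The panel reads miRNAs, so the allele itself was not checked here.

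A miRNA guides the silencing complex to messenger RNAs through its seed, bases 2 to 8 from the 5′ end, so members with the same seed can pair with largely the same sites. The family is known from blood vessels and lung. miR-130a was described in human endothelial cells as a repressor of the homeobox genes GAX and HOXA5, and the family has been studied in pulmonary hypertension, where it acts on PPARG in vascular cells.

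The mature sequences show what the family shares and where its members part, and are from RefSeq on the GRCm38.p6 build. The seed is in capitals. The panel names carry no arm, and the 3p arms are shown because they hold the seed.
miR-130a-3p: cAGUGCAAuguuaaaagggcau
miR-130b-3p: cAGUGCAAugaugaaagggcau
miR-301a-3p: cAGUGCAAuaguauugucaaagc
Of the 4 members 3 were matched in the sequence table, and miR-301b-3p is named only. miR-130a-3p and miR-130b-3p were identical at 20 of 22 bases and differed by U11A and A13G, counted from the 5′ end with the miR-130a base first. miR-301a-3p shared the first 9 bases with both and was identical to miR-130a-3p at 12 of the 22 bases compared without gaps. In the table, 7 of 1679 mature mouse miRNA names had this seed. The other 4, miR-130c, miR-721, miR-6341 and miR-6389, were not among the panel's probe names, so they were not analysed here.

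The genes lie at 3 places in the genome. The mature miR-130a-3p is encoded on the minus strand at chr2:84741116-84741137, in a hairpin gene inside no other annotated gene. Mature miR-301a-3p is encoded on the plus strand at chr11:87113054-87113076, within the span of Ska2, a gene for a kinetochore protein. Mature miR-130b-3p is encoded on the minus strand at chr16:17124071-17124092. The hairpin genes of miR-130b and miR-301b lie 257 bases apart on that strand, both within the span of 2610318N02Rik.

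Depth, as the summed count of the mouse miRNA probes, ran from 206964 to 289227 over the samples. Each lane has 8 negative control probes, and the background threshold used here is their mean plus 2 SD in the same lane. It ran from 56.3 to 80.5 counts in 6 lanes and from 146.6 to 197.5 in the lanes of samples 2, 5 and 6. Samples 3 and 8, 1 of each genotype, stood apart from the other lungs. The summed level of the 7 heart and skeletal muscle markers was 136877 and 127085 CPM (counts scaled to a common total per sample) in them, against 1457 to 2436 in the other 7. The summed level of the 5 epithelial miR-200 markers was 3280 and 4369 CPM, against 27636 to 33507. No probe of either list was at 0 in any sample. In samples 3 and 8 miR-208a was at 1202 and 1271 counts, against 15 to 54 in the other 7. miR-208b was at 3750 and 5797 against 33 to 82, and miR-499 at 2602 and 3460 against 26 to 53. miR-1 was at 9153 and 14021 against 66 to 147, and miR-133a at 6016 and 5201 against 77 to 162. Not every muscle marker rose in sample 3, where miR-206 was at 71 counts and miR-133b at 75. The other 7 lungs gave 62 to 116 and 46 to 93 counts for these, and sample 8 gave 187 and 110. In samples 3 and 8 the 4 endothelial markers summed to 117867 and 76483 CPM, against 113738 to 139066 in the other 7. The 5 mesenchymal markers summed to 71296 and 59962 against 73161 to 93169. The 6 haematopoietic markers summed to 11121 and 13966 against 8891 to 15453. Within a list, single probes went different ways. In counts, miR-142-3p was 115 in sample 3 and 1082 in sample 8, against 98 to 251 in the other 7. miR-223 was 187 and 186 against 327 to 597, and the endothelial miR-221 was 27 and 26 against 75 to 112. The part of these markers in the results below was not tested, and the genotype differences are also given without samples 3 and 8. A comment in the lane table reads as mutant for sample 5, against its sample label as wild type. The labels were followed, and results with sample 5 as mutant are given where they differ.

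Of the 4 members 3 were well above background in all 9 samples, and miR-301b was not. A probe entered the genotype test if it exceeded the threshold in at least 4 samples, which kept 189 of the 566 probes and 3 of the 4 members. miR-130a was the member with the highest counts, from 847 to 1775, or 18.7 to 55.4 times the mean negative control. It ranked 37th of the 566 probes by mean count. miR-301a gave 382 to 640 counts and ranked 57th, and miR-130b gave 340 to 596 and ranked 66th. Probes differ in how well they capture their target, so the order of counts need not be the order of molecules.

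miR-301b, encoded beside miR-130b, stayed near background. Its counts were 76, 72, 55, 53 and 89 in wild types 1 to 5 and 73, 68, 78 and 48 in mutants 6 to 9. It exceeded its lane threshold in 3 samples: wild type 1 (threshold 56.3), mutant 7 (65.7) and mutant 8 (65.1). The 95% Poisson interval of its count (exact, counting error only) included the threshold in mutants 7 and 8, at 52.8 to 86.2 and 61.7 to 97.4. In wild type 1 it did not, at 59.9 to 95.1. The counts of the genotypes overlapped, and no fold change is given for this probe.

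**Figure D1:**
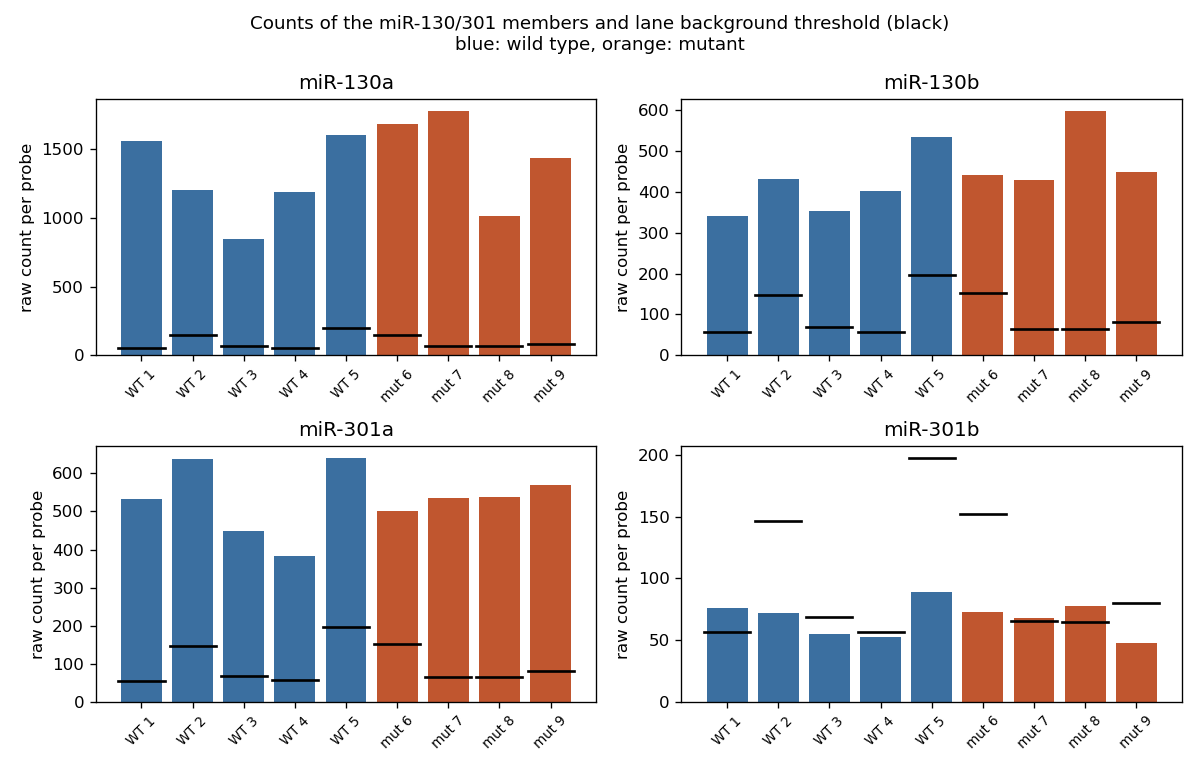
Raw counts of the 4 members (bars, y axis in counts per probe) in each of 9 samples, with the background threshold of each lane as a black line. miR-130a, miR-130b and miR-301a clear the line in all 9 samples, while miR-301b does so in wild type 1 and mutants 7 and 8.

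Together the 4 probes held 0.944% ± 0.0922 of mouse miRNA counts (SD, n = 9). The share was 0.903%, 0.835%, 0.822%, 0.917% and 0.992% in wild types 1 to 5. In mutants 6 to 9 it was 1.06%, 1.03%, 0.886% and 1.06%. Mutants 6, 7 and 9 lay above every wild type and mutant 8 lay among the wild types, so the groups overlapped. In bulk lung, fewer cells of a type and less RNA per cell cannot be told apart. The mean share of the 5 wild types was 0.894% ± 0.0687 (SD), and that of the 4 mutants 1.01% ± 0.0828. Without samples 3 and 8 the shares were 0.912% ± 0.0644 (SD, n = 4) and 1.05% ± 0.0199 (n = 3), and the ranges separated at 0.835% to 0.992% against 1.03% to 1.06%. In the second lane of wild type 5 the share was 1.03%, inside the mutant range. Of the kept members, only miR-130a separated as CPM without samples 3 and 8, and miR-130b and miR-301a overlapped. Of the 189 kept probes, 4 (2.12%) then separated with the mutant higher and 8 (4.23%) in either direction. No p is given for a sum over members chosen as a family.

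miR-130a made up 56.3% ± 6.20 of the 4 probes' counts (SD, n = 9), miR-301a 22.3% ± 3.18, miR-130b 18.6% ± 3.79 and miR-301b 2.85% ± 0.480. Much of the miR-301b count was background: with the mean negative control subtracted from each probe, its share ran from 0.257% to 2.08%. miR-130a exceeded miR-301a in 9 of 9 samples, by 1.89 to 3.36 times. miR-301a exceeded miR-130b in 7 of 9, with wild type 4 and mutant 8 the other way round. The mean log2 ratio of miR-301a to miR-130b was 0.27 ± 0.26 (SD, n = 9), so these neighbours in the order differed by about their spread.

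The ratio of miR-130a to miR-130b within a sample needs no scaling between samples. It was 4.59, 2.79, 2.41, 2.95 and 3.01 in wild types 1 to 5. In mutants 6 to 9 it was 3.81, 4.15, 1.70 and 3.19. The lowest value in each genotype was that of sample 3 or sample 8, the lungs with high muscle and low epithelial markers, and remained so after the mean negative control was subtracted (2.57 and 1.75, against 3.10 to 4.91 in the other 7). Wild type 1 had the highest ratio of the first lanes. Second lanes of the same RNA gave 3.52 in wild type 1, 4.66 in wild type 5 and 4.16 in mutant 6. Samples 3 and 8 had no second lane, so the lane error of their ratios is not known. Whether their marker levels had a part in the ratio was not tested.

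**Figure D2:**
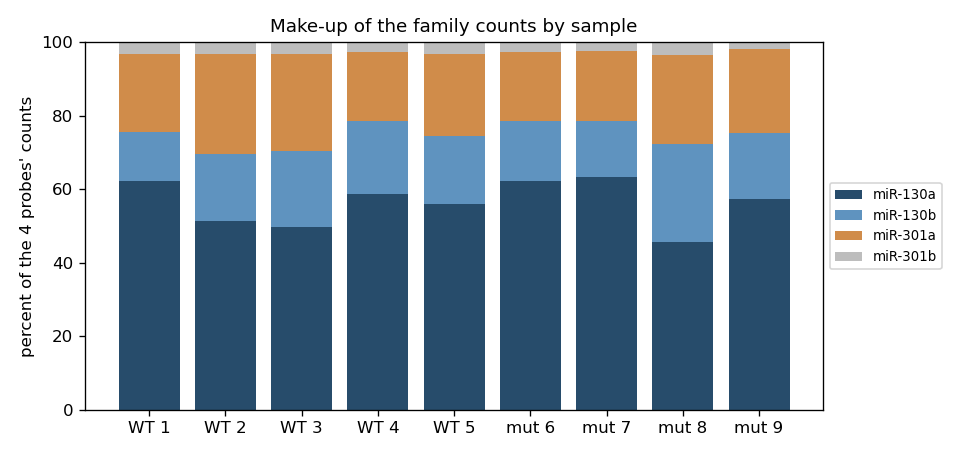
Make-up of the family counts in each of 9 samples (stacked bars, y axis in percent of the 4 probes' counts). miR-130a holds from 45.6% in mutant 8 to 63.2% in mutant 7, and miR-130b reaches its largest share, 26.8%, in mutant 8.

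Whether the family differs between wild type and mutant lungs was tested for the 3 kept members. Levels are CPM scaled by the trimmed mean of M-values (TMM), and fold changes are mutant over wild type. In edgeR's quasi-likelihood test over all kept probes, 0 of the 3 members passed a Benjamini-Hochberg adjusted p of 0.05, against 0 of 189 probes (0%). At an unadjusted p under 0.05 there were 0 members and 5 of 189 probes (2.65%). DESeq2 gave 0 probes adjusted and 9 unadjusted, and limma on log2 CPM gave 0 and 3.

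miR-130a, the member described in endothelium, read 6008, 4693, 5069, 5778 and 5693 CPM in wild types 1 to 5. In mutants 6 to 9 it read 6597, 7033, 4297 and 6394 CPM. Mutants 6, 7 and 9 were above every wild type, while mutant 8 was the lowest of all 9, so the groups overlapped, as did those of 188 of the 189 kept probes (1, or 0.529%, separated in either direction). The means were 5448 ± 547 CPM (SD, n = 5) and 6080 ± 1218 CPM (n = 4). The log2 fold change was 0.16 ± 0.19 (SE), with an adjusted p of 0.997 in edgeR's quasi-likelihood test and a 95% interval from -0.26 to 0.58. Leaving out 1 sample gave 0.08 without mutant 7 and 0.29 without mutant 8, the lowest and highest such values. An exact two-sided permutation test of log2 CPM over all 9 samples gave p = 0.405, where 0.00794 is the smallest possible.

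Without samples 3 and 8, the miR-130a ranges separated, at 4693 to 6008 CPM in 4 wild types and 6394 to 7033 CPM in 3 mutants. Of the 189 kept probes 4 (2.12%) separated with the mutant higher in these 7 samples, and 8 (4.23%) in either direction. The log2 fold change was 0.27 ± 0.13 (SE), with an adjusted p of 0.980 in edgeR and an unadjusted p of 0.0701. At an unadjusted p under 0.05 there were 0 members and 6 of 189 probes (3.17%) in these 7 samples, and 0 (0%) passed the adjusted threshold. The 95% interval ran from -0.03 to 0.56, or from 0.982-fold to 1.48-fold. The exact two-sided permutation p over these 7 samples was 0.0571, where 0.0286 is the smallest possible. The ranges also separated as percent of mouse miRNA counts, with DESeq2 size factors and after background subtraction. They overlapped when scaled by positive controls or housekeeping mRNAs, with sample 5 counted as mutant, and with the second lanes described below.

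miR-130b, which differs from miR-130a-3p by the 2 bases shown above, read 1310, 1684, 2107, 1959 and 1892 CPM in wild types 1 to 5. In mutants 6 to 9 it read 1730, 1696, 2521 and 2002 CPM. The highest values were in samples 3 and 8, where the muscle markers were high, and the groups overlapped. As percent of mouse miRNA counts, mutant 8 remained the highest at 0.237% and wild type 3, at 0.170%, fell among the other lungs (0.122% to 0.191%). The log2 fold change was 0.15 ± 0.19 (SE, 5 against 4), with an adjusted p of 0.997 in edgeR and a 95% interval from -0.28 to 0.58. It was 0.02 without mutant 8 alone, which moved it by over 1.5 times, and 0.08 ± 0.16 without samples 3 and 8. The exact permutation p was 0.429 over all 9 samples.

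miR-301a, the member inside Ska2, read 2054, 2489, 2681, 1861 and 2267 CPM in wild types 1 to 5. In mutants 6 to 9 it read 1965, 2124, 2271 and 2541 CPM. All 4 mutants lay inside the wild type range. The log2 fold change was -0.03 ± 0.16 (SE, 5 against 4), with an adjusted p of 0.997 in edgeR and a 95% interval from -0.40 to 0.34. It was 0.03 ± 0.15 without samples 3 and 8, and the exact permutation p was 0.857 over all 9 samples. As folds of mutant over wild type, the 9-sample intervals ran from 0.835 to 1.49 for miR-130a, 0.823 to 1.50 for miR-130b and 0.759 to 1.27 for miR-301a, so equal levels were not shown.

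**Figure D3:**
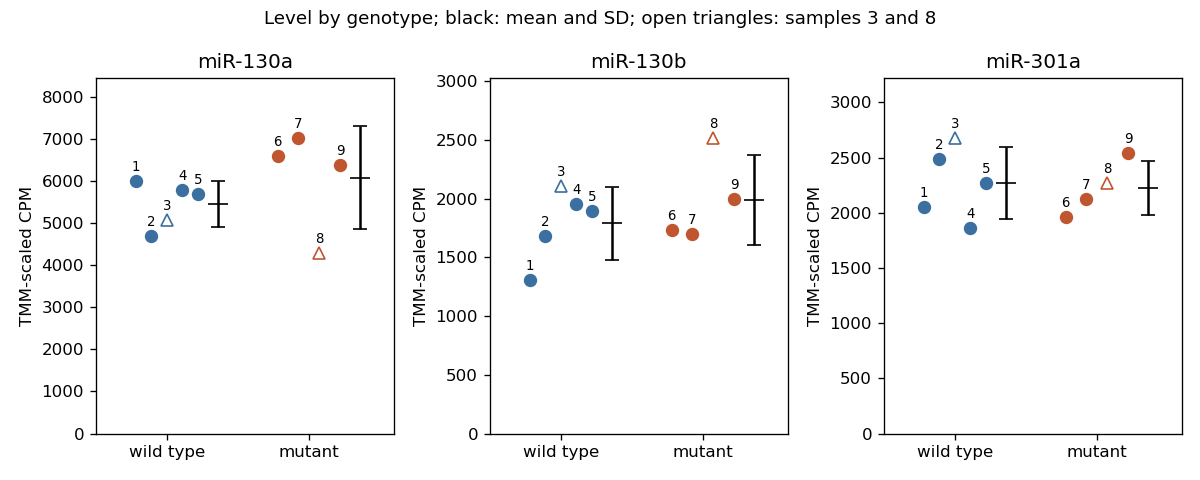
TMM-scaled CPM of the 3 kept members by genotype (points, numbered by sample; bars, mean and SD of 5 wild type and 4 mutant lungs; open triangles, samples 3 and 8). Mutants 6, 7 and 9 sit above the wild types for miR-130a with mutant 8 at 4297, and the genotypes overlap for all 3 members.

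**Figure D4:**
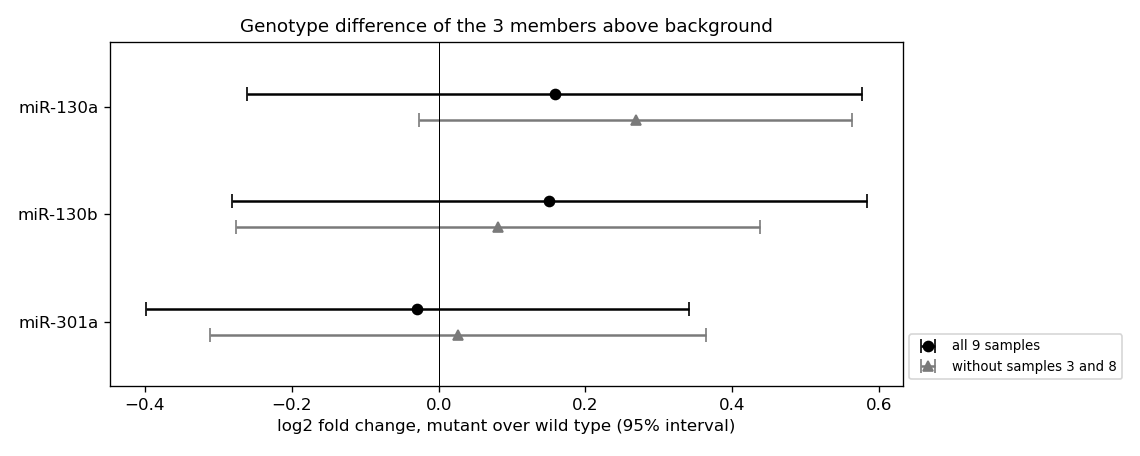
Log2 fold change of mutant over wild type with 95% intervals (x axis) for the 3 kept members, from all 9 samples (black) and without samples 3 and 8 (grey). All 6 intervals include 0, and the one nearest to leaving it out is miR-130a without samples 3 and 8, from -0.03 to 0.56.

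As a group, 2 of the 3 kept members read higher and 1 lower in the mutant, with a median log2 fold change of 0.15. The median was 0.02 without mutant 8, 0.06 without wild type 1, 0.08 without mutant 7 and 0.09 without wild type 2. Without samples 3 and 8 together it was 0.08, with 3 members higher and 0 lower, against a median of -0.02 over all probes and 46.6% higher. Over all 189 probes in the 9 samples the median was -0.03 and 40.2% read higher. Scaling by housekeeping mRNAs moved the median of all probes to 0.11, with 71.4% of them higher. All 3 members then read higher, with a median of 0.29. The spread of each member over the 9 samples was 0.23 (miR-130a), 0.26 (miR-130b) and 0.18 (miR-301a) SD in log2 CPM, against a median of 0.32 for the kept probes. Of the kept probes, 10.6% had a smaller SD than miR-301a over the 9 samples, and 28.6% over the 7 without samples 3 and 8.

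Samples 1, 5 and 6 were each run in a second lane, so the same RNA was read in a lower-background and a higher-background lane. Scaled as CPM to all mouse miRNA counts, miR-130a went from 5616 to 5281 between the first and second lane of wild type 1. It went from 5556 to 6570 in wild type 5 and from 6581 to 7991 in mutant 6. The lane with more background read lower in 3 of 3 pairs, by 0.20 log2 on average. miR-301a did the opposite in 3 of 3 pairs, by 0.10 log2 on average. miR-130b moved by 0.29, -0.39 and 0.16 log2 from first to second lane. For comparison, the SD of this lane difference over the kept probes was 0.37 to 0.39 log2. In samples 1, 5 and 6, 30.2%, 56.6% and 59.3% of kept probes moved less than miR-130a. For miR-301a these were 29.1%, 37% and 18%. How many kept probes moved the same way in all 3 pairs was not counted, so the directions may be chance.

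The lane differences of miR-130a, 0.09 to 0.28 log2 in size, spanned its genotype difference of 0.16, or 0.27 without samples 3 and 8. The second lane of wild type 5 brought miR-130a to 0.657% of mouse miRNA counts, above the 0.610% of mutant 9 and the 0.648% of mutant 7. With second lanes used for samples 1, 5 and 6 the log2 fold change of miR-130a was 0.22, and 0.34 ± 0.17 (SE) when samples 3 and 8 were also left out (adjusted p = 0.552 in edgeR, 0 of 189 probes called). Split by background in the first lanes, the higher-background lanes held wild types 2 and 5 at a mean of 5193 CPM and mutant 6 at 6597. The lower-background lanes without samples 3 and 8 held wild types 1 and 4 at 5893 and mutants 7 and 9 at 6714 CPM. The mutant was at 1.27 and 1.14 times the wild type in these splits, with 1 or 2 lungs per group. The same folds were 0.967 and 1.13 for miR-130b, and 0.826 and 1.19 for miR-301a. The part of lane background was not tested by these splits. With lane background as a covariate, the edgeR log2 fold change of miR-130a was 0.16 ± 0.20 (SE, adjusted p = 0.999), and 0.27 ± 0.13 without samples 3 and 8 (adjusted p = 0.687).

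**Figure D5:**
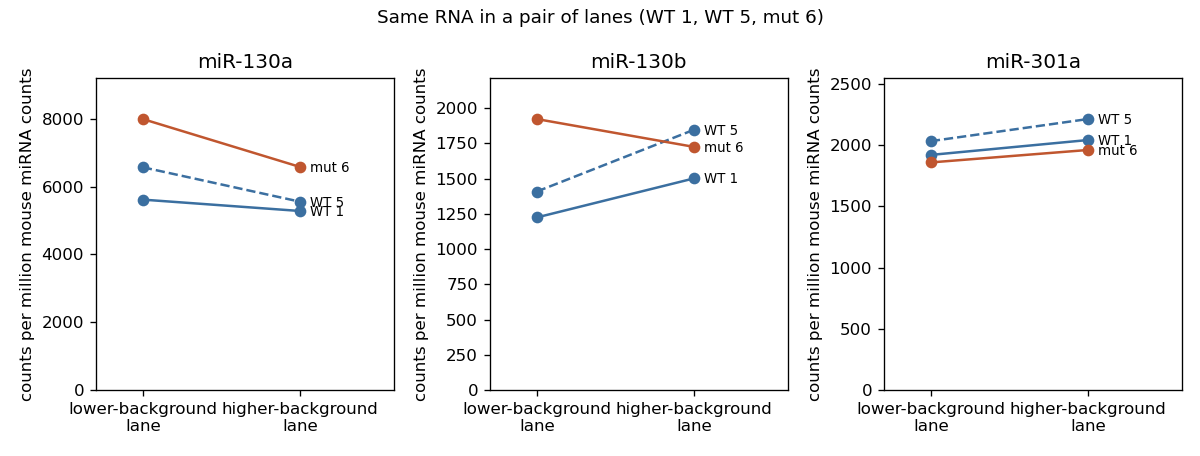
CPM of all mouse miRNA counts (y axis) of the same RNA in its lower-background and higher-background lane, for wild types 1 and 5 (blue) and mutant 6 (orange). The 3 miR-130a lines fall, the 3 miR-301a lines rise slightly, and the miR-130b lines of the wild types rise while that of mutant 6 falls.

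miR-148a, miR-148b and miR-152 carry a seed that is a near shift of the family's. Their sequences show the same 6 letters AGUGCA 1 base later.
miR-148a-3p: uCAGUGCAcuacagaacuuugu
miR-148b-3p: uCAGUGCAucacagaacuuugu
miR-152-3p: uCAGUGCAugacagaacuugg
All 3 were above background in 9 of 9 samples, with 0 of 3 past the adjusted threshold, and log2 fold changes of 0.03 ± 0.29 (miR-148a), -0.01 ± 0.14 (miR-148b) and 0.03 ± 0.17 (miR-152; SE, 5 against 4). Without samples 3 and 8 these were 0.03 ± 0.17, 0.02 ± 0.14 and 0.10 ± 0.15. Their summed level ran from 8001 to 11079 CPM in 7 lungs, and lay above that at 15059 (sample 3) and 13564 (sample 8). In these samples miR-148a was the highest of the 9, at 1584 and 2064 counts against 964 to 1489.

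Across the 7 lungs without samples 3 and 8, correlations between the family members were low or negative. Pearson's r of log2 CPM was 0.03 between miR-130a and miR-130b, -0.36 between miR-130a and miR-301a, and 0.20 between miR-130b and miR-301a. These are descriptions over 7 samples that share the scaling and the cartridge. Between lanes of the same RNA, miR-130a moved by 0.20 log2 on average and miR-130b by 0.28. Their SD over the 7 lungs was 0.19 and 0.21, so these r values cannot show whether the members vary together. For miR-301a the lane difference was 0.10 and the SD 0.17. The probes most like miR-130a were miR-99b (r = 0.91), miR-16 (0.91) and miR-1937c (0.90). Those most like miR-130b were miR-149 (0.91), miR-674 (0.85) and miR-133a (0.79). Those most like miR-301a were miR-142-3p (0.78), miR-96 (0.75) and miR-136 (0.67). Each set is the top 3 of 188 other probes. miR-133a is a muscle miRNA that lay at 77 to 162 counts in these 7 lungs, and it did not exceed the lane threshold in samples 2, 5 and 6.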

How the data were processed

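The deposited tables hold raw counts per probe, and per the file headers the second table gives 12 lanes of 1 cartridge. In that table the authors' other values, such as binding density, precede the counts and were not used in tests. How the authors handled background or scaling is not given in the sources used here. All 5634 counts of the first table equalled those of the first lanes. Repeat lanes count as 1 replicate. The labels give no litter or sex, so a p-value reflects only how these lungs vary.

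The genotype test was edgeR 4.0.16 under R 4.3.3 (TMM scaling, library sizes from the kept probes, glmQLFit and glmQLFTest, no covariate) and adjusted over 189 probes. SE is the log2 fold change over the root of F. Log2 CPM used a prior count of 2. DESeq2 1.42.0 and limma 3.58.1 were alternatives. The code was run on simulated counts with known fold changes, all larger than those estimated for the members. That check does not bear on changes as small as these. The members, lists and alternatives were chosen with earlier results of these data known. Genes were named by rule: the 4 members, probes with the same or a near seed, the 3 probes most like each kept member and cell type markers. Tables and figures used Python 3.11.15, pandas 2.3.3 and matplotlib 3.10.9.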

Additional observations from a re-analysis of the deposited data

Results flagged for a closer look

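A gap test for single outliers was applied to 14 groups, which are 7 quantities in each genotype, and it marked 2 values. Chance marks about 1 in 20 groups. The count ratio of miR-130a to miR-130b in wild type 1 was 4.59, above the other wild types at 2.41 to 3.01. The gap to the next wild type was 0.723 of the range, barely past the critical value of 0.71. With the mean negative control subtracted, the ratio was 4.91 against 2.57 to 3.36, and the gap test was not run on these values. In the second lane of the same RNA the count ratio was 3.52, and the second lane of wild type 5 read 4.66. The summed level of miR-148a, miR-148b and miR-152 in wild type 3 was 15059 CPM, above the other wild types. These are TMM-scaled CPM, and the TMM factor of wild type 3, 0.898, was the lowest of all samples. The gap test was not run on this sum as percent of mouse miRNA counts, so the mark holds for the TMM scale only. The muscle markers of wild type 3 summed to 136877 CPM and its epithelial markers to 3280 CPM. Their part in the sum of 15059 CPM was not tested.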

How the results depend on the processing

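No member passed the adjusted threshold in any of the 26 alternatives, and the number of probes past it was 0 in all of them. miR-130a and miR-130b read higher in the mutant in 26 of 26, at 0.08 to 0.34 and 0.02 to 0.29 log2. The alternatives refit the same lungs, so their agreement in sign is not independent support. Over all probes, 37.6% to 71.4% read higher in these settings. miR-301a changed sign in 11 of 26. Leaving out each sample gave -0.098 to 0.037. Its other values above 0 were 0.026 without samples 3 and 8, 0.049 without samples 3, 5 and 8, 0.037 with lane background as a covariate and without samples 3 and 8, 0.028 with second lanes and without samples 3 and 8, 0.013 in DESeq2, 0.10 scaled by positive controls, 0.11 by housekeeping mRNAs, 0.041 by total count and 0.079 with no filter. The cause was not tested. miR-301b exceeded background in 1 sample with a threshold of the mean plus 3 SD, and in 4 with the highest negative control or with second lanes. With background subtracted, 2, 1 and 3 of the 3 probes named as most like miR-130a, miR-130b and miR-301a stayed among the top 3. The scaling to all mouse probes, the fit without samples 3 and 8 on second lanes and the other scales for the miR-130a ranges were added after seeing the data. No paired analysis was possible because the genotypes share no replicate number. With 5 and 4 lungs and lane differences of this size, small fold changes were not detectable, and miR-301b lies too near background for a fold.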
